A study of Mus musculus with 27 samples.

Results

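The mouse Hox genes were measured in hearts that carried deletions of Hand2os1 (also called Hand2as or Uph), a long non-coding RNA gene next to the heart transcription factor gene Hand2. The members were selected by symbol alone, as every gene named Hox with a letter from a to d and a number. This gave 39 of the 24025 genes in the bulk table and 22 of the 19010 genes in the single-cell table. The family was proposed with earlier results of these data in view, so its patterns are given mainly as a description.

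All animals were C57BL/6 mice. Allele F is a knockout of the full length of Hand2os1, and allele D is a knockout of its 3′ distal part. Whole hearts at E11.5 (E stands for embryonic day) were F/+ or F/F, with 3 bulk libraries each. Ventricles at E16.5 were F/+ or F/F, again with 3 libraries each. Cardiomyocytes of 8-week mice came from 5 +/+, 2 D/+ and 6 D/D samples. The embryonic bulk controls therefore also carry 1 deleted allele, and no bulk +/+ heart was measured before birth. A pair of droplet single-cell libraries came from +/+ and F/F hearts at E11.5, with the live sorted cells of 6 hearts pooled in each. The labels do not say whether bulk samples pool animals or come from separate ones, so p-values measure only the spread between these samples.

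Hox genes encode homeodomain transcription factors and lie in the genome as HoxA, HoxB, HoxC and HoxD. Within a cluster all genes are read in the same direction, and their order matches the order in which they are switched on along the body axis, with low paralog numbers first and farthest forward. Genes with the same number in different clusters are paralogs. Hox proteins bind DNA with TALE cofactors of the Pbx, Meis and Pknox families, retinoic acid switches on the low-numbered genes, and Polycomb complexes keep silent genes off while Trithorax proteins keep active ones on. In the embryo, low-numbered Hox genes are known in the second heart field, in the neural crest that reaches the outflow tract, and in the mesenchyme of the lung and foregut, and Hoxa7 and Hoxa9 are known in blood stem and progenitor cells.

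In GENCODE (release M21, build GRCm38), HoxA holds 11 genes on chromosome 6 between 52155590 and 52260880 on the minus strand. HoxB holds 10 genes on chromosome 11 between 96194316 and 96368256, HoxC 9 genes on chromosome 15 between 102921103 and 103036852, and HoxD 9 genes on chromosome 2 between 74668310 and 74765142, all on the plus strand. The annotated span of Hoxa3 covers Hoxa4, Hoxa5 and Hoxa6, that of Hoxc5 covers Hoxc6, Hoxc8 and Hoxc9, and that of Hoxd3 overlaps Hoxd4 by 17232 bases. How reads in such overlaps were assigned is not given in the sources used here. The same holds for strand, so reads of a Hox gene and of an antisense transcript cannot be told apart in the bulk values.

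RefSeq promoter windows (GRCm38.p6) were found for 22 of the 39 members, in 24 windows. The 250 bases before a RefSeq start of 6 members are printed. These genes did not overlap between the bulk genotypes at E11.5 (Hoxa5, Hoxc4), or had the highest late level (Hoxa3). Others had the stage difference in both genotypes (Hoxb4) or the single-cell blood signal (Hoxa7, Hoxa9). By the GENCODE spans, the windows of Hoxa3, Hoxc4, Hoxa7 and Hoxa9 lie inside the gene. Those of Hoxa5 and Hoxb4 end just before the annotated start. Capitals mark TAAT on either strand, the core that homeodomains bind, and all are written 5′ to 3′ on the gene's strand. The windows are chr6:52213068-52213317 on the minus strand, chr6:52204588-52204837 on the minus strand, chr15:103034145-103034394 on the plus strand, chr11:96318017-96318266 on the plus strand, chr6:52218574-52218823 on the minus strand and chr6:52227371-52227620 on the minus strand.
Hoxa3: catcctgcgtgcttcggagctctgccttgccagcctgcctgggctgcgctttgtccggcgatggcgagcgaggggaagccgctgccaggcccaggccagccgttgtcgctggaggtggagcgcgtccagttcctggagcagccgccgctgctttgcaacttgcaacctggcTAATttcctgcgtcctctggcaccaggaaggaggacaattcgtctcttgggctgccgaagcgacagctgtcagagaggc
Hoxa5: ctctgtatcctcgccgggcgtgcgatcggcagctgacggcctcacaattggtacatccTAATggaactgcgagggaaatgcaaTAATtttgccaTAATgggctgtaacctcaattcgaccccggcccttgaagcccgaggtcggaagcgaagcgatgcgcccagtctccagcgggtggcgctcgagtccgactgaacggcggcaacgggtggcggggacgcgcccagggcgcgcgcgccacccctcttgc
Hoxc4: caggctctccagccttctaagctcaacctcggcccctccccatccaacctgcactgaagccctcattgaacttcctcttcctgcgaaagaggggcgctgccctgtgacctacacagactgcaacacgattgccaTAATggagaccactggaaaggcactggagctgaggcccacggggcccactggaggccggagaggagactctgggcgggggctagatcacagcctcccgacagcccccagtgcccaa
Hoxb4: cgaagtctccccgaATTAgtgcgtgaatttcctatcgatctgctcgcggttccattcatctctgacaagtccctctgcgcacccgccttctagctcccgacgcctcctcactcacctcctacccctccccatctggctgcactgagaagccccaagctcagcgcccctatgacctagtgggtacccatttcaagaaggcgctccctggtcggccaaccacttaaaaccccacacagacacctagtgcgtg
Hoxa7: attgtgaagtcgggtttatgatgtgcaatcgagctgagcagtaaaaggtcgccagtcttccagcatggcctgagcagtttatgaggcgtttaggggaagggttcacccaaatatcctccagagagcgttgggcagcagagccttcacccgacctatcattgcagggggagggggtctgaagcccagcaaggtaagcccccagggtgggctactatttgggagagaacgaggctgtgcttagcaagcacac
Hoxa9: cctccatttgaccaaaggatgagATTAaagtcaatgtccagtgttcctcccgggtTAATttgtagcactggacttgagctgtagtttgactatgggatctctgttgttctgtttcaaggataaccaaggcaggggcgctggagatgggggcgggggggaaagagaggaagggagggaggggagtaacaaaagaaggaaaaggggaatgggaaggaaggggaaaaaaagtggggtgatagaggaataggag
TAAT was present in 18 of the 24 Hox windows and in 54.9% of all 32851 windows of the same length. Hoxa5 held 3 matches, Hoxa9 held 2, and Hoxa7 held 0. The longest run shared by any pair of the printed windows was TTGCCATAATGG, 12 bases around a TAAT, in Hoxa5 and in Hoxc4. Of all 32851 windows, 2 held this run on either strand (0.00609%), those of Hoxa5 and Hoxc4. The run was picked after these windows were read. The Hox windows had a median GC content of 58.6% and a median of 12.5 CpG dinucleotides, against 52.4% and 6 over all windows. A match is a description of letters and does not show that a factor binds there.

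In the bulk values, Hox messages were low, came mostly from E11.5 and belonged mainly to paralog groups 1 to 5. Bulk values are FPKM, fragments per transcript length and library total, which lets levels be set side by side across genes. Of the 39 members, 10 were listed at 0 in all 25 libraries, and 14 had a mean of at least 1 FPKM in some group. All 14 reached that mean in the F/+ hearts at E11.5, 6 did in the F/F hearts at E11.5, 1 (Hoxa3) at E16.5 in each genotype, and 0 at 8 weeks. The summed FPKM of the 39 members was 131.71, 103.85 and 43.73 in the F/+ hearts at E11.5. It was 15.08, 19.99 and 10.56 in the F/F hearts of that day. The groups did not overlap in this sum, and the F/+ hearts also varied most among themselves. At E16.5 the sum ran from 4.89 to 8.89 over 6 libraries, and at 8 weeks from 1.01 to 10.4 over 13 libraries with a median of 2.55.

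The tissue labels were checked against markers. The 11 cardiomyocyte markers summed to between 12037 and 17129 FPKM in the E11.5 hearts and to between 28587 and 42764 FPKM in the 8-week libraries. Haemoglobin genes took 10.4% to 29.7% of all FPKM at E11.5 and at most 2.42% later. Hand2os1 itself had no value above 0 at E11.5 in either genotype, so it cannot check the bulk labels there. At E16.5 it was 0.37 to 1.4 FPKM in F/+ and 0 in the 3 F/F libraries. At 8 weeks the library labelled +/+ replicate 5 was at 0, against its label, while the highest +/+ library had 13.48 FPKM. Of the 6 D/D libraries 3 were above 0, up to 2.67 FPKM, so a value above 0 does not by itself mark a D/D label as wrong, and the check is a weak one there. The single cells held 1 UMI of Hand2os1 (listed as Gm28063) under the +/+ label and 9 under the F/F label. That goes against the labels unless these 3′ tags lie outside the deleted part, which was not tested, so F/F and +/+ cells below mean the cells of the libraries with those labels. Replicates of a group correlated at 0.947 to 0.992 over 38 pairs (Pearson's r of log2 values across genes).

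**Figure D1:**
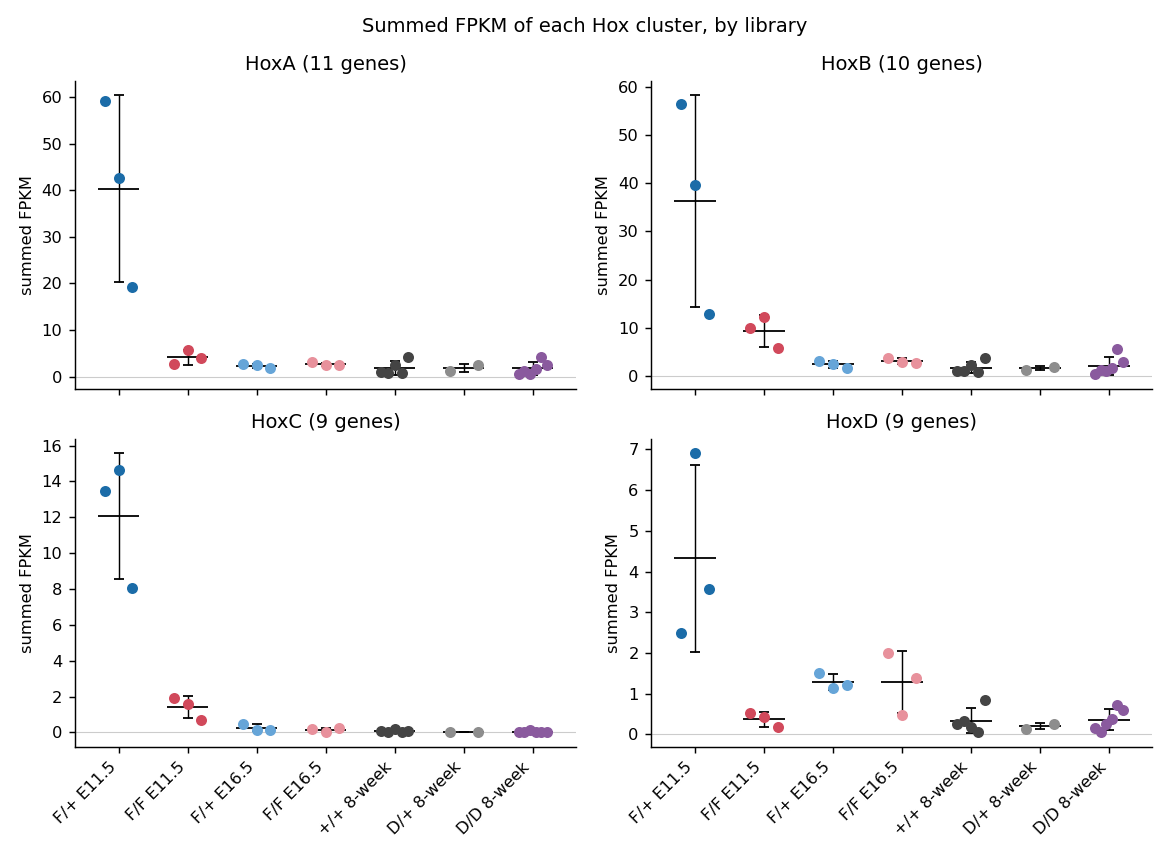
Summed FPKM of the genes of each Hox cluster (vertical axes, different scales), with each point a library, the horizontal bar the mean and the whiskers the SD. The 3 F/+ hearts at E11.5 lie above the other libraries in the HoxA, HoxB, HoxC and HoxD panels.

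By cluster, HoxA and HoxB gave most of the signal. In the F/+ hearts at E11.5 the HoxA genes summed to 40.4 ± 20.1 FPKM and the HoxB genes to 36.3 ± 22.0 (SD, n = 3). HoxC summed to 12.1 ± 3.51 and HoxD to 4.32 ± 2.31. In the F/F hearts the sums were 4.12 ± 1.59 for HoxA, 9.31 ± 3.28 for HoxB, 1.41 ± 0.631 for HoxC and 0.373 ± 0.184 for HoxD (SD, n = 3). In F/F the HoxB sums (5.75 to 12.2) lay above the HoxA sums (2.63 to 5.8) but for a narrow overlap, and in F/+ the HoxA and HoxB sums overlapped within their spread. By E16.5 the HoxC sum was down to 0.13, 0.15 and 0.47 FPKM in F/+, whereas HoxD still gave 1.13 to 1.5. Beside Hoxd3 and Hoxd4, the E16.5 F/+ ventricles held Hoxd8, at 0.26 to 0.73 FPKM, and Hoxd9, at 0.08 to 0.14. Hoxd9 was listed at 0 in all 6 E11.5 hearts.

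By paralog number, groups 1 to 5 carried nearly all of it. They summed to between 40 and 122.34 FPKM with a median of 101.46 in the F/+ hearts at E11.5, and groups 9 to 13 to at most 0.97. The summed means climbed from 12.8 FPKM in group 2 to 21.3 in group 3, 22.9 in group 4 and 26.9 in group 5, and dropped to 3.43 in group 6. In F/F the order was different, with group 4 at 5.19, group 2 at 3.94, group 3 at 3.74 and group 5 at 1.68. Group 5 was the highest in F/+ and the fourth in F/F. Whether the order differs between the genotypes was not tested. The spread between F/+ libraries is larger than the steps between groups 3, 4 and 5.

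**Figure D2:**
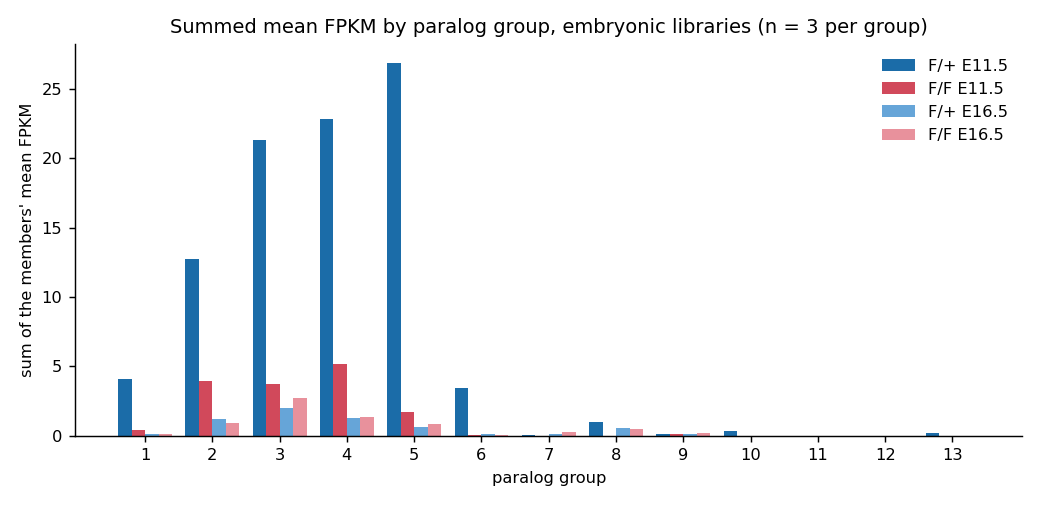
Sum of the members' mean FPKM (vertical axis) by paralog group (horizontal axis) in the 4 embryonic groups, with no error bars because each bar adds means of several genes. In F/+ at E11.5 the bars climb to 26.9 FPKM at group 5 and drop to 3.43 at group 6.

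Among the single genes at E11.5, Hoxa5 had the largest fitted difference with a pseudocount of 1. With 0.1 it was Hoxc5, at -4.76 against -3.43 for Hoxa5. Hoxa5, which is known for its part in lung and neck development, was at 27.89, 15 and 7.53 FPKM in the F/+ hearts and at 0.54, 1.8 and 2.04 in the F/F hearts. The lowest F/+ heart was above the highest F/F heart. The fitted difference was -2.74 (SE 0.44) on the log2(FPKM + 1) scale, which understates changes of low genes. Its adjusted p was 0.258 (limma with Benjamini-Hochberg adjustment over 12510 genes), so it did not pass 0.05.

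Hoxc5, its HoxC paralog, was at 5.06, 5.31 and 3.83 FPKM in F/+ and at 0, 0.45 and 0 in F/F. The 3 F/+ hearts lay close together and the groups did not overlap. Its log2 difference was -2.33 (SE 0.34), with an adjusted p of 0.177 by limma, the smallest of the family. Hoxb5, the HoxB paralog, was at 12.7, 3.37 and 0 in F/+ and at 0.2, 0 and 0 in F/F. These groups overlapped, since the third F/+ heart was listed at 0.

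The paralogs of group 4 followed. Hoxa4 was at 9.06, 6.28 and 4.23 FPKM in F/+ and at 0.06, 1.41 and 0.46 in F/F, with no overlap (log2 difference -2.23, SE 0.40, adjusted p 0.398 by limma). Hoxc4 was at 7.98, 8.13 and 3.62 in F/+ and at 1.94, 1.12 and 0.71 in F/F, also without overlap. Hoxd4 was at 1.0, 3.11 and 0.82 in F/+ and listed at 0 in every F/F heart. Hoxb4, a gene long studied in blood stem cells, was at 13.25, 7.13 and 3.93 in F/+ and at 2.65, 5.63 and 1.58 in F/F. Its groups overlapped, and it kept the highest F/F value of the family, 5.63.

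Group 3 genes are known in the pharyngeal arches and their neural crest. Hoxa3 was at 9.46, 12.81 and 4.25 FPKM in F/+ and at 1.1, 1.85 and 0.88 in F/F (log2 difference -2.02, SE 0.39, adjusted p 0.405 by limma). Hoxb3 was at 11.27, 16.86 and 3.82 in F/+ and at 2.3, 3.36 and 0.62 in F/F. Hoxd3 was at 0.93, 3.04 and 1.55 in F/+ and at 0.53, 0.42 and 0.17 in F/F. The groups did not overlap for any of these 3 paralogs.

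The paralogs of group 2 differed from each other. Hoxa2 was at 5.13, 6.11 and 1.44 in F/+ and at 0.93, 0 and 0 in F/F, without overlap. Hoxb2 behaved otherwise, at 11.14, 11.27 and 3.15 in F/+ and 4.37, 3.21 and 3.32 in F/F. The third F/+ heart lay below all 3 F/F hearts, and Hoxb2 had the highest F/F mean of the family, 3.63 FPKM. Beyond group 5, Hoxb6 was at 5.52, 0 and 1.27 in F/+ and at 0.27, 0 and 0 in F/F.

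**Figure D3:**
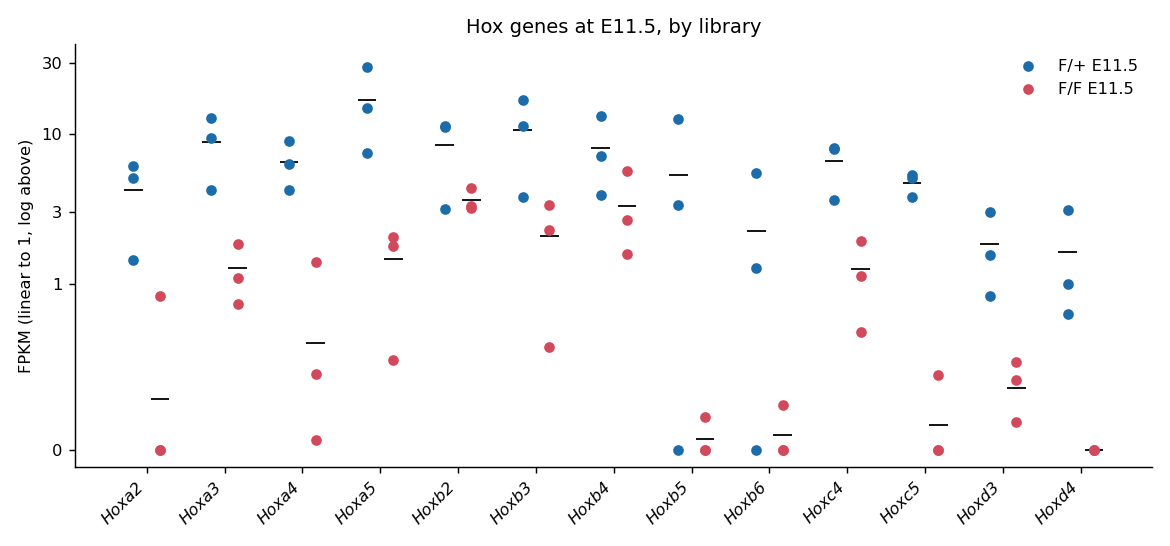
FPKM (vertical axis, linear up to 1 and logarithmic above) of 13 of the 14 members with a mean of at least 1 FPKM in F/+ hearts at E11.5, with each point a library and the bars the means. Hoxb2, Hoxb4, Hoxb5 and Hoxb6 are the members whose F/+ and F/F points overlap.

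Counted over the whole family, 25 of the 39 members had a value above 0 in some E11.5 library and 14 were listed at 0 in all 6. Of the 25, 24 had a lower mean log2(FPKM + 1) in F/F and 1 a higher one (Hoxa9, at 0.22 FPKM or less), beside 50.8% lower among all 15645 genes with a value. For 11 of the 25 every F/F heart lay below every F/+ heart, beside 4.12% of those genes. The median difference of the 25 was -0.99 on the log2 scale, against -0.01 over all genes. Of the 25, 9 were at 0 in all 3 F/F hearts and entered through F/+ values alone. For these 9 a lower level in F/F was fixed by the selection, and the count of 24 and the median include them. By cluster, 5 of 8 HoxA, 1 of 9 HoxB, 2 of 4 HoxC and 3 of 4 HoxD members with a value did not overlap. The HoxB member was Hoxb3. Whether the clusters differ was not tested.

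No member passed the adjusted threshold at E11.5. Limma called 0 of the 14 members that had a mean of at least 0.5 FPKM, where 0.00799% of the 12510 genes tested were called. At an unadjusted p under 0.05, 12 of these 14 were lower, beside 2.14% of all genes tested. The 14 passed the filter largely through their F/+ values, so this count carries no weight of its own. The call depends on the scaling and the spread used: limma called 2 members (Hoxa5 and Hoxc5) after rescaling without haemoglobin genes, 5 with array weights and 7 in a fit of all 25 libraries. Rescaling without haemoglobin genes moves the median difference of all genes from 0.01 to -0.31.

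Among markers of tissues around the heart, the lung and foregut mesenchyme and the neural crest lists had lower sums in F/F without overlap. The 6 markers of lung and foregut mesenchyme (Tbx4, Foxf1, Wnt2, Barx1, Nkx6-1, Osr1) summed to 88.46, 31.94 and 21.84 FPKM in F/+ replicates 1 to 3 and to 15.07 to 16.34 in F/F. Of the 6, 4 were lower in F/F without overlap, beside 4.12% of the 15645 genes with a value. Tbx4, a lung mesenchyme factor, was at 11.36 FPKM in F/+ replicate 1 and at 0.04 to 0.34 in F/F. The 6 neural crest markers summed to 6.83 to 14.1 in F/+ and to 2.81 to 5.05 in F/F, with Sox10 among those that did not overlap and Tfap2b at 0 in all F/F hearts. The 5 limb and body wall markers were highest in F/+ replicate 2, at 92.1 FPKM, against 25.15 to 46.56 in the other 5 hearts. The 5 somite and muscle markers were highest there too, at 9.9 FPKM, with a range of 0.23 to 1.74 in the others. Epcam, of the 6 epithelial markers, did not overlap either, while that list's sums did. The 5 neural markers overlapped, at 9.3 to 12.1 in F/+ and 8.2 to 13.9 in F/F. No marker of these 6 lists was at 0 in all 6 hearts. The 4 hepatocyte markers overlapped and were highest in an F/F heart, at 0.6 to 163.91 FPKM in F/+ and 7.53 to 352.96 in F/F. Of the heart's own cells, the cardiomyocyte markers summed to 12037 to 14327 FPKM in F/+ and 14349 to 17129 in F/F. The 9 endothelial markers summed to 314.59 to 352.1 and 374.1 to 398.63. The 8 mesenchymal markers overlapped, at 475.28 to 582.84 in F/+ and 419.96 to 480.82 in F/F. The part of tissue around the heart in the Hox difference was not tested.

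F/+ replicates 1 and 2, which held the highest lung mesenchyme sums, were left out after the data were seen. Then 10 of 11 members tested had a lower level in F/F, with a median log2 difference of -1.07, and Hoxb2 turned to 0.15. In that comparison F/+ was a single library, the members passed the filter largely through it, and its lung mesenchyme (21.84) and neural crest (6.83) sums were themselves above those of F/F, so it does not separate the Hox values from such tissue. In these bulk samples fewer cells of a type and less RNA per cell cannot be told apart.

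Genes that act with or upstream of the Hox genes showed no call at E11.5 with limma: 0 of 8 tested TALE cofactors, 0 of 12 retinoic acid genes, 0 of 24 Polycomb and Trithorax genes and 0 of 3 other regulators. With 0.00799% of all genes called, lists of this size would seldom hold a call. At an unadjusted p under 0.05, which 2.14% of all genes met as lower, those lower in F/F were Crabp2, a retinoic acid binding protein (-3.22, SE 0.65, adjusted p 0.510), Stra6, a retinol transporter (-2.18, SE 0.58), and the TALE gene Pknox1 (-0.62, SE 0.24). The cofactor Meis1 differed by -0.35 (SE 0.28) on the log2 scale.

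From the E11.5 heart to the E16.5 ventricle, Hox messages in F/+ went from a median sum of 103.85 FPKM to 6.02. Stage and tissue differ together here and cannot be told apart. Hoxa5 fell by 3.52 on the log2 scale (SE 0.38, adjusted p 9.98e-06 by limma), to 0.51, 0.29 and 0.34 FPKM. Hoxa4 fell by 2.80 (SE 0.31) to 0.08, 0.06 and 0 FPKM. Hoxc4 fell by 2.74 (SE 0.30) to 0.2, 0.06 and 0 FPKM, and Hoxc5 fell by 2.49 (SE 0.23) to 0, 0.05 and 0. For all 4 the stages did not overlap.

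Limma called 13 of the 14 tested members lower, where 29.9% of the 12439 genes tested were lower and 17.3% higher. Many of the 14, such as Hoxc5 and Hoxb6, passed the filter on low values largely through the F/+ hearts at E11.5, so a lower level at E16.5 was partly fixed by that filter and the count carries no weight of its own. The member not called was Hoxd4 (-0.60, SE 0.31, adjusted p 0.132), which held 0.57, 0.72 and 0.58 FPKM at E16.5. Without a filter on low values limma called 11 of 27 members lower, beside 22.2% of the genes then tested. Hoxb5 (-1.68, SE 0.64) and Hoxb6 (-1.30, SE 0.49) overlapped between the stages. Their calls were lost without that filter, and that of Hoxb5 in 11 of 12 and that of Hoxb6 in 8 of 11 fits that left out a library. With F/+ replicates 1 and 2 at E11.5 left out, limma tested 7 members and called 7 lower. The E11.5 F/+ arm was then a single library, assumed to vary like the other groups, and these 7 were again selected largely through it. Under median-ratio scaling 12 of 14 members were called lower, and the split over all genes became 23.96% lower and 24.5% higher, as the median of all genes moved from -0.18 to -0.01.

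Hoxa3 was the member with the most left at E16.5. It was at 1.61, 1.64 and 0.94 FPKM in F/+ and at 2.24, 2.0 and 1.52 in F/F, and the genotypes overlapped. Hoxb2 came next, at 1.12, 0.98 and 0.58 in F/+ and 1.16, 1.01 and 0.53 in F/F. Hoxb3, Hoxb4 and Hoxd4 lay between 0.24 and 1.15 FPKM in all 6 ventricles and did not differ in order beyond their spread. Between F/F and F/+ ventricles limma called 0 of 5 members tested, at an unadjusted p under 0.05 also 0, where 0.00852% of all genes tested were called. Among these 5 the largest difference was that of Hoxa3, 0.29 (SE 0.19) on the log2 scale. Below the filter, Hoxa2 was at 0.55, 0.17 and 0.28 FPKM in F/+ and at 0.04, 0 and 0.04 in F/F, a log2 difference of -0.37. Hoxb5 was at 0.37, 0.16 and 0.15 in F/+ and at 0.55, 0.5 and 0.62 in F/F, a difference of 0.35. Their groups did not overlap, in opposite directions, and both had an adjusted p of 1 by limma without the filter. They were picked with values in view from the 23 members tested without it. The share of all genes without overlap at E16.5 was not computed, so the lack of overlap carries no weight of its own.

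In F/F, where the E11.5 values were already low, limma called 3 of 14 members lower at E16.5, beside 29.7% of genes lower and 17.9% higher. These were Hoxb2 (-1.29, SE 0.36), Hoxb4 (-1.38, SE 0.38) and Hoxc4 (-1.09, SE 0.30), with adjusted p-values of 0.00985, 0.00970 and 0.00869. Hoxd4 went the other way, from 0 in all 3 F/F hearts to 1.15, 0.24 and 0.59 FPKM in the F/F ventricles, with an adjusted p of 0.0852 by limma. Hoxb5 rose too, from 0.2, 0 and 0 to 0.55, 0.5 and 0.62 FPKM without overlap. Its log2 difference was 0.55 (SE 0.64, adjusted p 0.506 by limma). Hoxa3 rose by 0.37 (SE 0.32) with overlap. Rescaling without haemoglobin genes turned the split over all genes to 18.0% lower and 26.7% higher, and median-ratio scaling to 23.7% and 24.9%. The same 3 members were called lower under both.

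The test of whether the stage difference differed between F/F and F/+ called 1 member, Hoxc5, at 2.34 (SE 0.33, adjusted p 0.0494 by limma), where 0.0161% of 12439 genes were called. This comparison shares the F/+ hearts at E11.5 with those above. The call sat at the threshold: it was lost with a pseudocount of 0.1, with a filter at 1 FPKM and in 10 of 12 fits that left out a library (all but those without F/+ replicate 3 or F/F replicate 2 at E11.5). Without F/+ replicate 3 at E11.5, Hoxa3 and Hoxa5 were called as well. Differences of Hoxa5 (2.67, SE 0.53), Hoxa4 (2.35, SE 0.44) and Hoxa3 (2.32, SE 0.45) were of like size and did not pass.

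Genes around the Hox family also differed between the stages in F/+. Of 12 tested retinoic acid genes 8 were called lower and 1 higher, beside the 29.9% and 17.3% of all genes. Aldh1a2, which makes retinoic acid in the epicardium, fell by 2.60 (SE 0.24), and the binding proteins Crabp1 and Crabp2 and the transporter Stra6 fell by 4.98, 4.0 and 3.09. Of 8 TALE cofactors 5 were called lower and 0 higher, Pbx3, Pknox1, Pbx2 and Pknox2 by 0.87, 0.90, 0.71 and 0.96 in falls on the log2 scale. Unlike the Hox genes these stayed at levels of several FPKM or more, with Pbx2 at a mean of 51.0 FPKM at E16.5, except Pknox2 at 1.33. Of 24 Polycomb and Trithorax genes 3 were called lower and 2 higher, among them Cbx2 (-1.68, SE 0.17), a Polycomb subunit, and Kmt2a (-0.86, SE 0.18), the Trithorax methyltransferase. Of the other 3 regulators tested, Zbtb16 rose by 1.92 and Gdf11 fell by 0.85.

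In F/F the same lists gave 6 lower and 1 higher of 12 retinoic acid genes, beside 29.7% and 17.9% of all genes. Aldh1a2 fell by 2.42, Crabp1 by 3.18, Aldh1a1 by 2.34 and Cyp26b1, which breaks down retinoic acid, fell by 1.24. Of 8 TALE cofactors 3 were called lower (Pbx2, Pknox2 and Pbx3) and 1 higher. Of 24 Polycomb and Trithorax genes 4 were called lower and 3 higher, led by Pcgf2 (1.55, SE 0.18) and Cbx2 (-1.14, SE 0.17). Zbtb16 and Gdf11 were again called higher and lower. The interaction and the genotype comparison at E16.5 called 0 genes of these 4 lists by limma, and at E16.5 also 0 at an unadjusted p under 0.05.

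In the 8-week cardiomyocytes no member had a group mean of 1 FPKM. Hoxa3 was at 0.1 to 1.7 FPKM over the 13 libraries with a median of 0.51, Hoxb2 at 0.09 to 2.58 with a median of 0.64, and Hoxb4 at 0 to 1.48 with a median of 0.35. The +/+, D/+ and D/D groups overlapped for all 3. Between D/D and the 7 controls limma called 0 of these 3 tested members, also 0 at an unadjusted p under 0.05, and 0.0% of the 11420 genes tested. The differences were 0.08 (SE 0.24) for Hoxa3, 0.18 (SE 0.24) for Hoxb2 and 0.09 (SE 0.22) for Hoxb4. Against the E16.5 F/+ ventricle the +/+ cardiomyocytes gave 0 calls among 4 members tested by limma, and 0 at an unadjusted p under 0.05, where 44.1% of all genes were called lower and 24.5% higher. Under median-ratio scaling those shares became 31.4% and 32.6%, and without haemoglobin genes 54.5% and 18.2%. Hoxa3 differed by -0.61 (SE 0.29, adjusted p 0.0730) and passed without the library labelled +/+ replicate 5 (-0.80, adjusted p 0.0122). Without a filter on low values limma called 3 of 27 members lower, beside 35.1% of the genes then tested. Hoxd4 was called in each of the 2 fits that tested it (-0.63, adjusted p 1.6e-04 and 0.0060 by limma). It was at 0.57 to 0.72 FPKM in the E16.5 F/+ ventricles and at 0 to 0.07 in the +/+ cardiomyocytes.

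The lists around the family gave many calls in the comparison of 8-week cardiomyocytes with the ventricle, where 44.1% of all genes were lower. Of 24 Polycomb and Trithorax genes 19 were called lower and 3 higher in 8-week cardiomyocytes. Ezh2, the Polycomb methyltransferase, fell by 2.52 (SE 0.18), Suz12 by 2.16, Mtf2 by 2.10 and Pcgf2 by 4.40. Of 8 TALE cofactors 7 were called lower and 1 higher, with Pbx2 at -2.39 (SE 0.18). Of 9 retinoic acid genes 3 were lower and 3 higher, among them Dhrs3 at 2.98. Of 4 other regulators Zbtb16 and Egr2 were higher and Gdf11 lower. D/D against its controls gave 0 calls in these lists by limma, and 0 at an unadjusted p under 0.05.

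D/D replicate 5 had the highest Hox sum, 10.4 FPKM, and the highest sum of the 9 endothelial markers, 496 FPKM. The library labelled +/+ replicate 5 came next on both, at 8.75 and 353 FPKM. At the low end, +/+ replicate 4 had a Hox sum of 1.56 and an endothelial sum of 104, and D/D replicate 1 had 1.01 and 199. The 8 epicardial markers summed to 18.1 and 14.5 FPKM in the 2 libraries richest in Hox messages and to 3.43 to 12.2 in the other 11. The 10 immune markers ranged from 3.64 to 27.6. The part of non-muscle cells in the Hox values was not tested.

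The single-cell libraries showed which cells of the E11.5 heart carry these messages. Values here are UMIs (unique molecular identifiers, each a captured molecule) and CPM, the UMIs scaled to a common total in the same cells. After filters 2503 +/+ and 3368 F/F cells remained, with 37032576 and 49329168 UMIs and medians of 13307 and 13348 per cell. The files hold 2563 and 3469 barcodes, below the 5000 per sample that the labels aim for, and the libraries share 18 barcode sequences. Each genotype is a single library, so no test was made. Intervals are exact 95% intervals and cover counting error only.

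Hox UMIs were rare in both libraries. There were 313 in +/+ and 454 in F/F, or 8.45 CPM (7.54 to 9.44) and 9.20 CPM (8.38 to 10.1). The ratio of F/F to +/+ was 1.09 (0.941 to 1.26). That differs from the bulk hearts of the same day, where the F/F sums were all lower, but the bulk controls were F/+ and the single-cell ones +/+, and the 2 kinds of data were not tested against each other. Of the 22 members 21 had a UMI, and Hoxa11 had 0, which allows up to 0.0810 CPM in +/+ and 0.0608 CPM in F/F (3 UMIs of the total). A Hox UMI was found in 445 of 5871 cells, and 356 of these 445 held UMIs of a single Hox gene.

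HoxB gave 57.9% of the Hox UMIs, HoxA 37.0%, HoxD 3.39% and HoxC 1.69%, and paralog groups 1 to 5 gave 91.3%. Hoxb2 alone had 115 UMIs in +/+ and 178 in F/F. Hoxb4 had 52 and 49, Hoxa3 21 and 37, Hoxa5 26 and 20, and Hoxb3 18 and 23. Each of these ratios had an interval that includes 1. Paralog group 5 had 32 UMIs in +/+ and 21 in F/F, a CPM ratio of 0.49 (0.270 to 0.881). Hoxd4 had 5 and 19, a ratio of 2.85 (1.03 to 9.78), and with Hoxd3 the HoxD ratio was 3.15 (1.16 to 10.7). Groups 6 to 13 together had a ratio of 1.76 (1.03 to 3.14). These intervals, out of 21 members and their clusters and paralog groups looked at, cover no variation between hearts. Hoxc4 and Hoxc5, which stood apart in the bulk hearts, had 5 and 2 UMIs in +/+ and 1 and 0 in F/F.

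Cells were clustered without any Hox gene among the variable genes, and the 18 clusters were called after fixed markers. The leading genes of several clusters belong to more than 1 list, so clusters are compared by number. The 4 erythroid-like clusters serve as background: 8 Hox UMIs in 2196 cells, 0.250 CPM (0.108 to 0.492), or 0.364% of cells at a median of 11352 UMIs per cell. With haemoglobin and mitochondrial genes taken out of the totals, the level was 0.648 CPM (0.280 to 1.28).

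Cluster 13 had the highest Hox level. It is outflow-like, with 4 of 6 outflow and second heart field markers and with Iigp1, Rgs5, Isl1 and Dkk1 among its leading genes, with 129 cells or 2.20% of all cells and 19.3% of all Hox UMIs. Markers of other lists led there too, 3 of 6 of foregut and lung epithelium, 3 of 5 of limb and body wall and 3 of 8 mesenchymal ones. Epcam (10.1 CPM), Nkx2-1 (15.9 CPM) and Alx1 (15.1 CPM) had their highest level of all clusters in cluster 13, while Tbx4 was at 0.721 CPM and Foxa2 and Nkx6-1 at 0. The part of such cells in its Hox level was not tested. Its 148 Hox UMIs make 107 CPM (90.2 to 125), and 45.7% of its cells (36.9 to 54.7) held at least 1, at a median of 9985 UMIs. Thinned to 5000 UMIs per cell the share was 31.5% over 127 cells. The UMIs were 44 of Hoxb2, 37 of Hoxb4, 18 of Hoxa3, 14 each of Hoxa2 and Hoxb3, and fewer of the others. Of all Hoxa2 UMIs 53.8% lay there. In +/+ the cluster had 80.1 CPM (60.2 to 105) and in F/F 132 CPM (106 to 161), a ratio of 1.64 (1.16 to 2.34). The 3 richest F/F cells held 31 of the 94 F/F UMIs, and all 7 Hoxa5 UMIs of the cluster came from 1 F/F cell. With doublets kept, the cluster of highest Hox level (141 CPM, 135 cells) met no marker list.

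**Figure D4:**
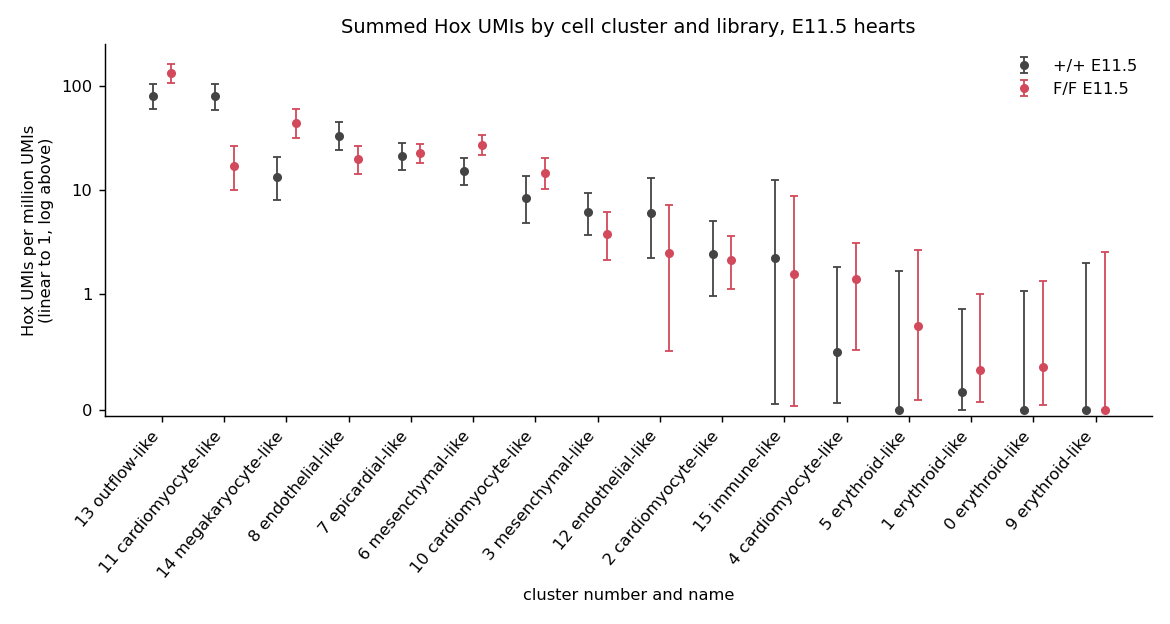
Summed Hox CPM (vertical axis, linear up to 1 and logarithmic above) in each cluster of at least 50 cells, with points for the +/+ and F/F libraries and bars for exact 95% Poisson intervals. Cluster 13 is at 80.1 in +/+ and 132 in F/F, and the erythroid-like clusters lie at the right end.

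Cluster 11 had 39.5 CPM (30.6 to 50.1) from 67 UMIs in 141 cells, the next level over both libraries. In +/+ it was near cluster 13, and in F/F it lay below clusters 14, 6, 7 and 8. Of the 11 cardiomyocyte markers 10 led there. Its leading genes included Osr1, Wnt2, Vsnl1 and Shox2, the last 2 being markers of the sinus venosus at the inflow of the heart. Of the 5 sinus venosus markers 2 led. Tbx18, Isl1 and Hcn4, also on that list, had their highest level in clusters 7, 13 and 4. Hoxb4 gave 25 of the UMIs and Hoxb2 18. The +/+ cells had 49 UMIs in 53 cells, 78.6 CPM, and the F/F cells 18 UMIs in 88 cells, 16.8 CPM, a ratio of 0.213 (0.117 to 0.373). Of the 25 Hoxb4 UMIs, 22 were in +/+ and 3 in F/F. The UMIs of +/+ were clumped, with 32 of the 49 in 3 cells and 17 in 1 cell, whereas no F/F cell held more than 2. The share of cells with a Hox UMI was 24.5% (13.8 to 38.3) in +/+ and 17.05% (9.87 to 26.6) in F/F, so its intervals overlapped where those of the UMI sums did not. Thinned to 5000 UMIs per cell the shares were 13.5% and 4.82%, with 1 and 5 shallower cells left out.

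Clusters 6 and 7 held many cells with few Hox UMIs each. Epicardial-like cluster 7, led by Upk3b, Upk1b and Aldh1a2, had 138 UMIs in 396 cells, 22.0 CPM (18.5 to 25.96), with a ratio of 1.07 (0.743 to 1.55). Hoxb2 gave 88 of these UMIs, 33 in +/+ and 55 in F/F. Mesenchymal-like cluster 6, led by Inhba and Meox1, had 132 UMIs in 402 cells, 21.2 CPM (17.8 to 25.2). Its level was 15.1 CPM in +/+ and 27.2 in F/F, a ratio of 1.80 (1.24 to 2.63). It held 18 of the 24 Hoxd4 UMIs and 20 of the 58 Hoxa3 UMIs, and 17 of those 20 were in F/F. The other mesenchymal-like cluster, 3, led by Msx1, had 4.76 CPM (3.33 to 6.59). The intervals of clusters 3 and 6 do not meet, although both carry the same name.

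A pair of clusters with all 9 endothelial markers also differed. Cluster 8, whose first leading gene Stmn2 is on the neural list and whose top 10 genes hold no endothelial marker, with Aqp1 and Klf2 among them, had 87 UMIs in 320 cells, 24.8 CPM (19.8 to 30.6), and cluster 12, led by Emcn, had 9 UMIs in 141 cells, 4.06 CPM (1.86 to 7.70). Cluster 8 held 20 of the 46 Hoxa5 UMIs and 5 of the 9 Hoxa4 UMIs, with 16 of Hoxb2. The ratio of F/F to +/+ in cluster 8 was 0.596 (0.382 to 0.929), and 15 of 129 +/+ cells against 27 of 191 F/F cells held a Hox UMI. The 5 Hoxa4 UMIs were all in +/+.

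Among the clusters named for heart muscle, levels spanned from 39.5 CPM in cluster 11 to 0.972 in cluster 4. Unnamed cluster 17, where 7 of the 11 cardiomyocyte markers led, had 0 Hox UMIs in 10 cells (0 to 54.1 CPM). Cluster 10, led by Sema3c and Rspo3, markers of the outflow tract, had 51 UMIs in 292 cells, 11.9 CPM (8.86 to 15.6), with 26 of Hoxb2 and 13 of Hoxb3. Cluster 2, with the ventricular gene Myl2 among its leading genes, had 20 UMIs in 579 cells, 2.21 CPM (1.35 to 3.42), and 19 of those 20 were Hoxb2. Cluster 4, led by Nppa and Gja5, had 8 UMIs in 534 cells, 0.972 CPM (0.419 to 1.91). Clusters 10 and 11 stood above clusters 2 and 4 by more than counting error.

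Hoxa7 and Hoxa9 had a place of their own in blood-like cells. All 27 Hoxa7 UMIs and 24 of the 26 Hoxa9 UMIs lay in cluster 14, a megakaryocyte-like cluster of 104 cells with 25.4 CPM (19.4 to 32.6) of Hox. The cluster had 13.1 CPM in +/+ and 43.8 in F/F, a ratio of 3.33 (1.90 to 6.07), from 4 +/+ and 7 F/F cells with a Hox UMI. The Hoxa7 and Hoxa9 UMIs came from 9 cells, 3 of +/+ and 6 of F/F, and 7 of the 9 held both genes, with up to 6 UMIs of Hoxa7 and 7 of Hoxa9 in a cell. The other 95 cells held 0 of either. These 9 cells were picked by their Hox UMIs, and the genes compared in them were chosen after values were seen. Pf4, a platelet gene, was at 31.7 CPM in the 9 cells and at 6087 in the 95, and Gp1bb and Ppbp had 0 UMIs in the 9. Cd34, Flt3 and Hlf, genes of blood progenitors, were at 416, 58.8 and 36.2 CPM in the 9 and at 65.9, 4.58 and 0.458 in the 95. Kit, another progenitor gene, was at 45.3 and 39.4 CPM, and Meis1 was at 36.2 in the 9 and 51.7 in the 95. The markers behind the cluster's name were therefore low in these 9 cells. At Leiden resolution 0.5 and with Hox genes among the variable genes, no megakaryocyte-like cluster held Hox UMIs and the immune-like cells were at 18.1 and 21.1 CPM.

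**Figure D5:**
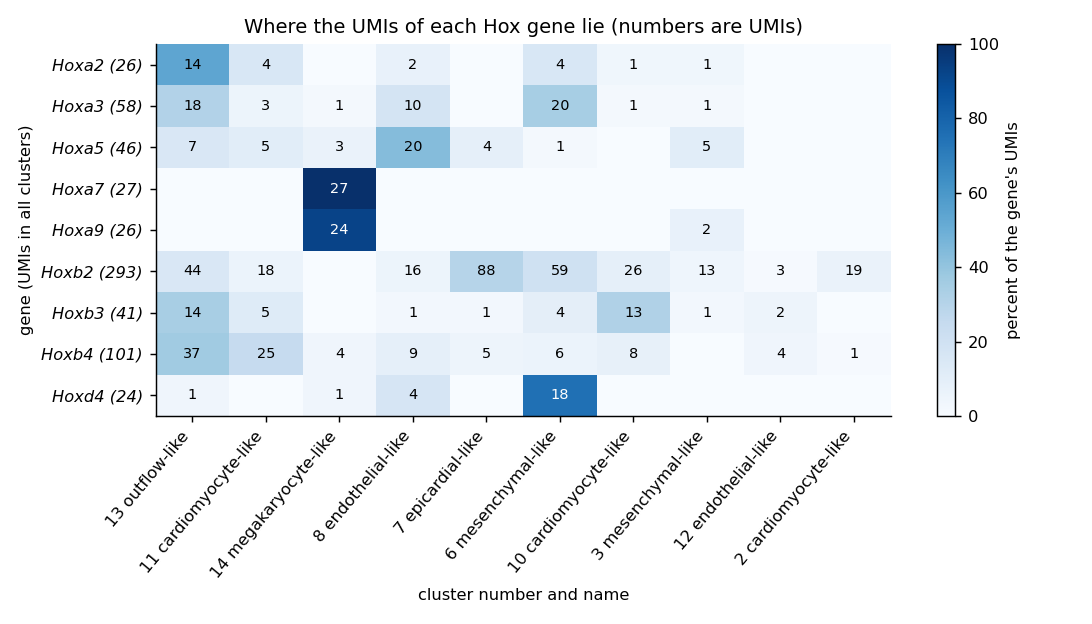
UMIs of Hox genes with at least 20 UMIs (9 shown in rows, total in brackets) in 10 clusters (columns), with the colour giving the percent of the gene's UMIs. Hoxa7 and Hoxa9 lie in cluster 14, Hoxd4 mostly in cluster 6, and Hoxb2 is spread over 9 of the 10 clusters.

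In the same cell, pairs of Hox genes were seen mostly through Hoxb2 and Hoxb4. These were found together in 16 cells, of 235 with Hoxb2 and 77 with Hoxb4. Hoxa3 with Hoxb2 followed at 13 cells, and Hoxb3 with Hoxb2 and with Hoxb4 at 10 each. Over both libraries 11 cells held 4 Hox genes and 1 cell held 7.

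The genes whose level over the 18 clusters was most like that of the summed Hox UMIs were Zfp503 (Pearson's r 0.885), Tax1bp1 (0.883), Rab2b (0.878), Gm16740 (0.873) and Lpar4 (0.871), out of 10674 genes with at least 200 UMIs. Wbscr27, Tex9, Cdyl2, 4931428F04Rik and Id4 followed at 0.867 to 0.869. All 10 had their highest CPM in cluster 13. The 18 points share libraries and the cluster of highest Hox level, so these values only describe the order of clusters.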

How the data were processed

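Messenger RNA was measured in 25 bulk libraries and 2 droplet libraries of mouse heart. The deposited bulk table holds FPKM; no header names the unit, which was inferred from values that are not whole and columns that sum to between 334194 and 586795, so depth is unknown. Per the submitters' processing notes, bulk data used build mm9 with CASAVA, TopHat and TopHat2 2.0.11, and single-cell data mm10 with Cell Ranger. The counting program and annotation are not given in the sources used here. The deposited single-cell table holds UMI counts per gene and barcode.

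Members and lists were chosen with earlier results of these data known. Identical lines of the bulk table were merged (270 symbols) and 1 gene was dropped for a blank value. A fit kept genes averaging 0.5 FPKM or more over its libraries, values were taken as log2(FPKM + 1), and limma 3.58.1 (R 4.3.3) with an intensity trend was fitted, with Benjamini-Hochberg adjustment over all genes tested and a threshold of 0.05. The fits were tested on simulated data. Named were members that averaged 1 FPKM or more in some group or had 100 UMIs, members called, and, from lists around the family, at most 4 called genes by smallest p; other genes named were picked with their values in view.

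Barcodes with at least 500 genes were kept. Doublets were scored with scrublet; its automatic threshold marked 2 and 20 barcodes, too few to have worked, so the 52 and 96 barcodes of highest score were removed, a number set by library size. Scanpy 1.11.5 clustered both libraries on 2000 variable genes, 30 components, 15 neighbours and Leiden resolution 1.0. A cluster was named where at least 3 markers of a fixed list led and these made up a share of at least 0.667 of the list. Alternatives were another pseudocount, other filters and scalings, a Y-linked covariate, all 25 libraries in a fit, the replicate number as a block and leaving out each library; array weights, both F/+ replicates left out and an unfiltered fit of all libraries were added after seeing the data. Some genes are counted in the totals and are not reported here by name.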

Additional observations from a re-analysis of the deposited data

Results flagged for a closer look

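In the +/+ 8-week cardiomyocytes, Hoxd4 was listed at 0 FPKM in replicate 2, apart from the other 4 libraries at 0.05 to 0.07 FPKM. In the D/D 8-week cardiomyocytes, Hoxa4 was at 1.11 FPKM in replicate 5, the library with the highest endothelial marker sum, apart from the other 5 at 0.11 to 0.41. Of 16 groups of values checked for such a lone sample, chance alone marks about 1 in 20. The stage difference of Hoxc5 differed between F/F and F/+ by 2.34 on the log2 scale (adjusted p 0.0494 by limma).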

How the results depend on the processing

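At E11.5, F/F against F/+, the main count of 0 members called became 2 after rescaling without haemoglobin genes, 7 in a fit of all 25 libraries and 5 with array weights; leaving out each library gave 0 to 0. Hoxb2 reversed to 0.15 in this comparison, and to -0.15 in the interaction, when both F/+ E11.5 replicates 1 and 2 were left out. The F/+ stage count of 13 became 7 of 7 tested when both were left out, and 10 to 12 when each library was left out. The F/F stage count of 3 became 5 with a pseudocount of 0.1 and with array weights (Hoxa5 lower and Hoxd4 higher were added), and 3 to 4 when each library was left out. The interaction count of 1 became 0 with a pseudocount of 0.1, with a filter at 1 FPKM and with both replicates left out, 4 in a fit of all 25 libraries, 6 with array weights, and 0 to 3 when each library was left out: 3 without F/+ E11.5 replicate 3, 1 without F/F E11.5 replicate 2 and 0 without any other. The 8-week count against E16.5 of 0 became 3 with no filter, 1 after rescaling without haemoglobin genes, 2 with array weights and 1 in an unfiltered fit of all 25 libraries; leaving out each library gave 0 to 1. The cause of these changes was not tested, apart from fewer samples or genes where the setting itself removes them. The genotype counts at E16.5 and 8 weeks stayed at 0 under every alternative that gave a value. At a filter of 1 FPKM no member was left to test in the 8-week comparisons.

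Same-numbered libraries of the groups compared correlated at -0.432 to 0.520 in their deviations from group means, so the numbers do not pair samples, and in no comparison did every library correlate best with its own number. With the replicate number as a block the interaction count became 0 and the 8-week count against E16.5 became 1, and the other 5 counts stayed within 1.5 times. In the single cells the F/F to +/+ ratio ran from 1.04 to 1.15. The Hox level of cells under the cardiomyocyte name moved from 6.28 to 4.14 to 4.63 CPM where clusters were drawn otherwise. That of the erythroid-like cells moved from 0.250 to 0.648 CPM without haemoglobin and mitochondrial genes. FPKM carry no depth, so no limit is given for members listed at 0.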
